A study of Sus scrofa with 6 samples.

Results

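The genes PECAM1, CDH5, FLT1, KDR, TEK, VWF, CLDN5, LYVE1, PROX1 and FLT4 are widely used marks of the cells that line blood and lymphatic vessels, and all 10 were found among the 20648 genes measured in the ileum of suckling piglets. They were followed in 76099 cells, that is, barcodes with at least 1000 unique molecular identifiers (UMIs, each counting 1 captured transcript) and at least 500 genes. A cell was gated as endothelial when its UMIs of CDH5 and PECAM1 summed to at least 2 and it held at most 1 UMI of the leukocyte gene PTPRC. This gate held 721 cells. Of these, 530 had no UMI of the lymphatic genes MMRN1 and LYVE1 and are called blood endothelial cells, 134 had at least 2 such UMIs and are called lymphatic endothelial cells, and 57 had 1 and were left between the classes. Below, blood cells and lymphatic cells are short for these gated endothelial classes and do not mean cells of the blood or lymph. The comparison cells were 928 fibroblasts with at least 5 UMIs of the collagen genes COL3A1 and COL1A1 and no PECAM1. Thus CDH5, PECAM1 and LYVE1 chose the cells and are described without a test, while the other 7 members were not used for the choice.

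Endothelial cells form the inner wall of vessels. PECAM1 and CDH5 (VE-cadherin) hold neighbouring endothelial cells together, and CLDN5 seals their tight junctions. FLT1, KDR and FLT4 are receptors of the vascular endothelial growth factors, with KDR carrying most of the growth signal of blood vessels and FLT4 that of lymphatic vessels, TEK is the receptor of the angiopoietins, and VWF is a clotting protein that endothelial cells store and secrete. PROX1 is the transcription factor that sets lymphatic identity, and LYVE1 is a hyaluronan receptor of lymphatic vessels. In the small intestine, blood capillaries take up most nutrients below the epithelium, and the lacteal, a lymphatic vessel in the villus, carries away chylomicrons.

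Scraped ileal mucosa of male piglets was taken apart with EDTA and TrypLE, and single cells were counted with the 10x Chromium system at 6 ages, days 0, 1, 3, 7, 14 and 21. The labels name no genotype or treatment, and age is the only difference they give between groups. Only cells that EDTA released from the mucosa were collected. The methods give several piglets per age but 1 chip channel per group, so each age is 1 library without a replicate and no difference between ages was tested. The text that describes the series names the cecum, while the sample labels and the paper name the ileum. The 6 libraries held between 77391932 and 100348769 UMIs, with 10836 to 15956 cells each and a median of 3693 to 4560 UMIs per cell. The libraries shared 672 of 75427 cell barcodes (0.891%), and none of these was gated as endothelial in more than 1 library.

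Endothelial cells were found mainly in the first days of life. The gate held 302 of 10836 cells on day 0, a share of 2.79% (95% Clopper-Pearson interval 2.49 to 3.12, counting error only, here and below). On day 1 it held 345 of 11494 cells, or 3.00% (2.70 to 3.33). On day 3 there were 45 of 11361 cells, or 0.396% (0.289 to 0.530). The last 3 ages gave 9, 11 and 9 cells, which was 0.0712% (0.0326 to 0.135), 0.0689% (0.0344 to 0.123) and 0.0651% (0.0298 to 0.124) of all cells. The interval of day 3 did not overlap those of the ages on either side, whereas days 7, 14 and 21 could not be told apart. Fibroblasts numbered 308, 390 and 220 on days 0, 1 and 3 and 1, 3 and 6 thereafter, and over the same ages the share of B cells (CD79B and MS4A1 of at least 2) went from 24.2% and 37.2% to 71.8%, 82.5%, 91.5% and 92.9%. Since a share falls when other cells become more frequent, a loss of endothelial cells and a gain of B cells cannot be told apart from these values.

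**Figure D1:**
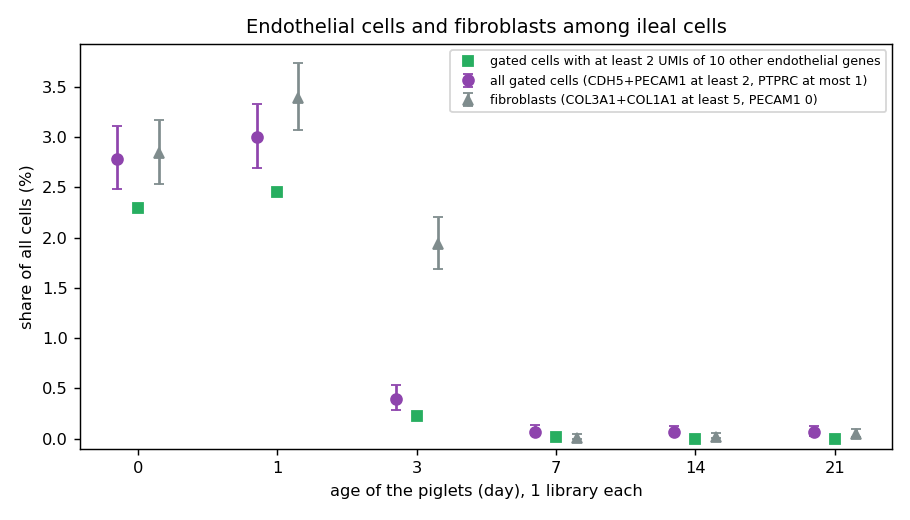
Share of all cells (%) in each library that passed the endothelial gate (circles), that passed it and also held at least 2 UMIs of 10 other endothelial genes (squares), and that passed the fibroblast gate (triangles), against age in days. Bars are 95% Clopper-Pearson intervals of the 2 gates. Gated endothelial cells made up 2.79% and 3.00% of cells on days 0 and 1 and under 0.1% from day 7 on, where almost none of them held other endothelial genes.

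The gate was checked against 10 other endothelial genes (TIE1, ENG, ESAM, EGFL7, EMCN, ERG, SOX18, ROBO4, CLEC14A and RAMP2). At least 2 UMIs of these were held by 249 of 302 gated cells on day 0, 282 of 345 on day 1, 26 of 45 on day 3 and 2 of 9 on day 7. On days 14 and 21 no gated cell of 11 and 9 reached this, and none held a UMI of CDH5, FLT1, KDR, TEK or VWF. Instead, 9 of 11 and 9 of 9 cells carried at least 2 UMIs of the B cell genes CD79B and MS4A1, as did 6 of 9 on day 7. The data therefore go against the label after day 7, and the gated cells of days 14 and 21 are not described as endothelial here. Levels in endothelial cells below are from days 0, 1 and 3.

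Within the blood gate, 2 kinds of cells were mixed. On days 0 and 1, 344 of 460 blood-gated cells held at least 2 UMIs of the 10 other endothelial genes, and all 576 FLT1 UMIs of the class lay in these. The other 116 cells were deeper, with a median of 18944 against 6257 UMIs, and 70 of them had at least 5 UMIs of the epithelial genes EPCAM, KRT8 and KRT18, 22 at least 2 of the B cell genes and 11 at least 3 of the myeloid genes CSF1R, AIF1, FCN1 and S100A12. These 116 cells held no UMI of FLT1 or CLDN5, 1 each of KDR, VWF and FLT4 and 3 of TEK, but 41 of PROX1, at 0.162 UMIs per 10000 (0.116 to 0.220), where barcodes with at most 100 UMIs had 0.151 and 0.155 on days 0 and 1. By day these were 21 UMIs in 19 cells and 20 UMIs in 9 cells. Cells just inside the gate held few endothelial UMIs. The 10 other endothelial genes summed to 0.984 UMIs per 10000 in the 114 cells with CDH5 and PECAM1 at 2, and to 0.416 in the 688 cells just outside with a sum of 1. At a sum of 3 (31 cells) the value was 3.13, while the blood gate as a whole had 22.6 (22.2 to 23.1, exact Poisson interval). Cells without PECAM1 also held these 10 genes, at 3.07 with COL3A1 and COL1A1 summing to 4 and at 2.80 with a sum of 5. In fibroblasts, ENG was at 1.02, 1.20 and 0.883 and CLEC14A at 0.989, 1.62 and 0.993 on days 0, 1 and 3. Levels of the members in the blood gate are therefore also given without cells that held fewer than 2 UMIs of these 10 genes. This split was chosen after these values were seen.

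The lymphatic gate was mixed in another way. All 132 lymphatic-gated cells of days 0 and 1 held at least 2 UMIs of the other endothelial genes. However, the 31 cells with only 2 to 4 UMIs of MMRN1 and LYVE1 had FLT1 at 2.65 UMIs per 10000 (2.07 to 3.35), VWF at 5.23, PROX1 at 0.971 (0.634 to 1.42) and FLT4 at 0.374 (0.179 to 0.687). In the 101 cells with 5 or more, FLT1 was at 0.180 (0.0985 to 0.302), VWF at 2.19, PROX1 at 6.49 (5.93 to 7.08) and FLT4 at 2.92 (2.55 to 3.33). The cells near the threshold thus had more FLT1 and VWF and less PROX1 and FLT4 than the others, but their FLT4 lay above the 0.0596 (0.0405 to 0.0846) of the blood gate. Their VWF interval (4.40 to 6.17) overlapped that of the 344 blood cells with other endothelial genes, at 4.57 (4.31 to 4.83). The 10 such cells of day 0 had PROX1 at 2.52 and FLT4 at 1.33, and the 21 of day 1 at 0.449 and 0.0499. Just outside the gate, the 55 cells with 1 such UMI had FLT1 at 1.95, PROX1 at 1.06 and FLT4 at 0.138, and all 54 PROX1 UMIs were from day 0 (3.30) and none from day 1, with FLT4 at 0.306 and 0.0582. Just inside it, the 19 cells with 2, which are part of the 31, had FLT1 at 2.98, PROX1 at 0.292 and no FLT4.

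**Figure D2:**
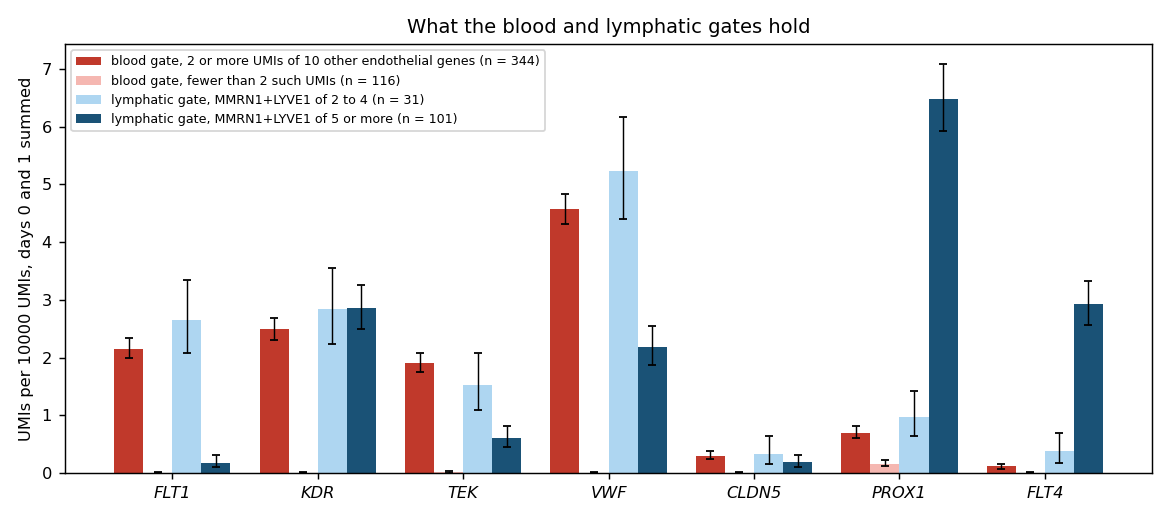
UMIs per 10000 UMIs of the 7 members outside the gates, summed over days 0 and 1, in blood-gated cells with at least 2 or fewer than 2 UMIs of 10 other endothelial genes, and in lymphatic-gated cells with 2 to 4 or at least 5 UMIs of MMRN1 and LYVE1. Bars show the summed level and error bars the exact 95% Poisson interval. The 116 blood-gated cells with few other endothelial UMIs are close to 0 for all members but PROX1 (0.162, against 0.151 and 0.155 in barcodes of at most 100 UMIs). The 31 lymphatic-gated cells near the threshold have more FLT1 and VWF and less PROX1 and FLT4 than the 101 others.

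Levels below give the UMIs of each gene, summed over the cells of a class, per 10000 summed UMIs. The counting is by transcript end, with 1 UMI per transcript, so levels of different genes are compared without a correction for length, and capture may still differ between genes. FLT1, a VEGF receptor of blood vessels, stood at 1.12 (1.00 to 1.25), 1.09 (0.964 to 1.23) and 1.27 (0.863 to 1.80) in the blood gate on days 0, 1 and 3. The 3 intervals overlapped. Without the cells that lacked other endothelial genes, the FLT1 level was 2.48 (2.22 to 2.77) on day 0 and 1.86 (1.65 to 2.10) on day 1, and these intervals did not overlap. The 23 such cells of day 3 held 31 FLT1 UMIs, with an interval of 1.36 to 2.84 that overlapped both. In fibroblasts FLT1 was at 0.0319, 0.00932 and 0.

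KDR, the main signalling receptor of VEGFA, was at 1.24 (1.11 to 1.37), 1.34 (1.19 to 1.49) and 1.84 (1.35 to 2.47) in the blood gate on the same days, with overlapping intervals. In cells with other endothelial genes KDR reached 2.73, 2.28 and 2.91. Fibroblasts held 2, 4 and 0 KDR UMIs. TEK, the angiopoietin receptor, was at 0.798 (0.697 to 0.910) on day 0 and at 1.20 (1.07 to 1.35) on day 1 in the blood gate, so that these intervals did not overlap, and at 0.942 (0.597 to 1.41) on day 3. In cells with other endothelial genes TEK was at 1.76 (1.54 to 2.01) and 2.04 (1.81 to 2.29) on days 0 and 1, and these intervals overlapped. In fibroblasts TEK was at 0.0638, 0.112 and 0.103, against 0.0753, 0.0745 and 0.0986 in barcodes of at most 100 UMIs, which stand for free RNA here.

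VWF, the stored clotting protein, had the highest level of the 7 members in the blood gate on each of the 3 days, at 2.37 (2.19 to 2.55), 2.32 (2.14 to 2.53) and 1.93 (1.42 to 2.56). Its interval overlapped with that of KDR on day 3 but not on days 0 and 1. Without the cells that lacked other endothelial genes, VWF was at 5.24 (4.85 to 5.66), 3.96 (3.64 to 4.31) and 3.03 (2.23 to 4.04). Unlike in the full gate, the intervals of days 0 and 1 then did not overlap. Fibroblasts held 0, 4 and 1 VWF UMIs. CLDN5, the tight junction protein, was low: the blood gate held 20, 60 and 2 UMIs, or 0.0716 (0.0437 to 0.111), 0.249 (0.190 to 0.321) and 0.0819 (0.00992 to 0.296). The CLDN5 level was higher on day 1 than on day 0 beyond the counting error, also in cells with other endothelial genes (0.425 against 0.159), in 1 library each. The junction genes that chose the cells were at 7.10, 12.5 and 16.8 for PECAM1 and at 1.32, 2.43 and 2.83 for CDH5 in the blood gate. Without the cells that lacked other endothelial genes they were at 14.8, 20.3 and 23.8 for PECAM1 and at 2.87, 4.14 and 4.45 for CDH5.

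Against fibroblasts, TEK and PROX1 were higher in the blood gate, where most PROX1 UMIs lay in 24 cells. FLT1, KDR, VWF, CLDN5 and FLT4 were hardly counted in fibroblasts, with 7, 6, 5, 1 and 0 UMIs. UMIs were summed per library and class, and the libraries of days 0, 1 and 3, each with at least 20 cells in both classes, were the replicates of this contrast between classes (edgeR quasi-likelihood test with library as a block, Benjamini-Hochberg adjustment over 10868 genes). Across all genes, 1247 passed an adjusted p of 0.05 as higher in blood endothelial cells (11.5% of those tested) and 1237 as lower (11.4%). The members were chosen as endothelial genes, so a high count among them was built into the list. FLT1, KDR, VWF, CLDN5 and FLT4 also passed the filter on low counts through the blood class alone, so their values are a description and no p is given for them. With 1 library left out, the number of genes higher ran from 276 (without day 1) to 1920 (without day 3) and the number lower from 533 (without day 1) to 1784 (without day 3).

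Among the members outside the gates with a UMI in fibroblasts, the ratio was highest for VWF. It had 1268 UMIs in 502 blood cells against 5 in 918 fibroblasts, a ratio of 236 (101 to 729), and a log2 fold change of 7.85 ± 0.46 (SE). KDR had a log2 fold change of 6.95 ± 0.47 and FLT1 of 6.40 ± 0.50. TEK was at 3.52 ± 0.23 (adjusted p = 2.2e-04), with 536 UMIs against 48. CLDN5 had 82 UMIs against 1, a ratio of 76.4 with a counting interval of 13.3 to 3052. PROX1 had the smallest change among the members, 2.76 ± 0.41 (adjusted p = 0.0058). Of its 228 UMIs in the blood gate, 200 lay in 24 of 460 cells of days 0 and 1, and the 42 blood cells of day 3 held none. Those 24 cells held 2 FLT1, 1 TEK and 2 VWF UMIs but 29 of KDR. At least 5 UMIs of the epithelial genes were held by 10 of them. The PROX1 value thus describes the gate and not blood endothelial cells in general. FLT4 had no UMI in fibroblasts against 33 in blood cells. Its level was 10.2-fold higher when 3 UMIs over the 3 libraries were set as the floor, and the lower limit of its counting interval was 7.87. Without the cells that lacked other endothelial genes, the log2 fold changes were 8.63 for VWF, 7.72 for KDR, 7.21 for FLT1, 4.32 for TEK and 3.39 for PROX1. A UMI of FLT1 was seen in 48.4% of blood-gated cells and 0.763% of fibroblasts, and of VWF in 57.4% and 0.545%, with median depths of 5378 to 7216 and 3698 to 4685 UMIs per cell. In the 344 blood-gated cells of days 0 and 1 with other endothelial genes, FLT1 was seen in 65.7% and VWF in 78.5%. When day 1 was left out, the adjusted p of PROX1 rose to 0.13. PROX1 could not be fitted when day 0 was left out. The standard errors of VWF, KDR and FLT1 do not resolve the order of neighbours among them.

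**Figure D3:**
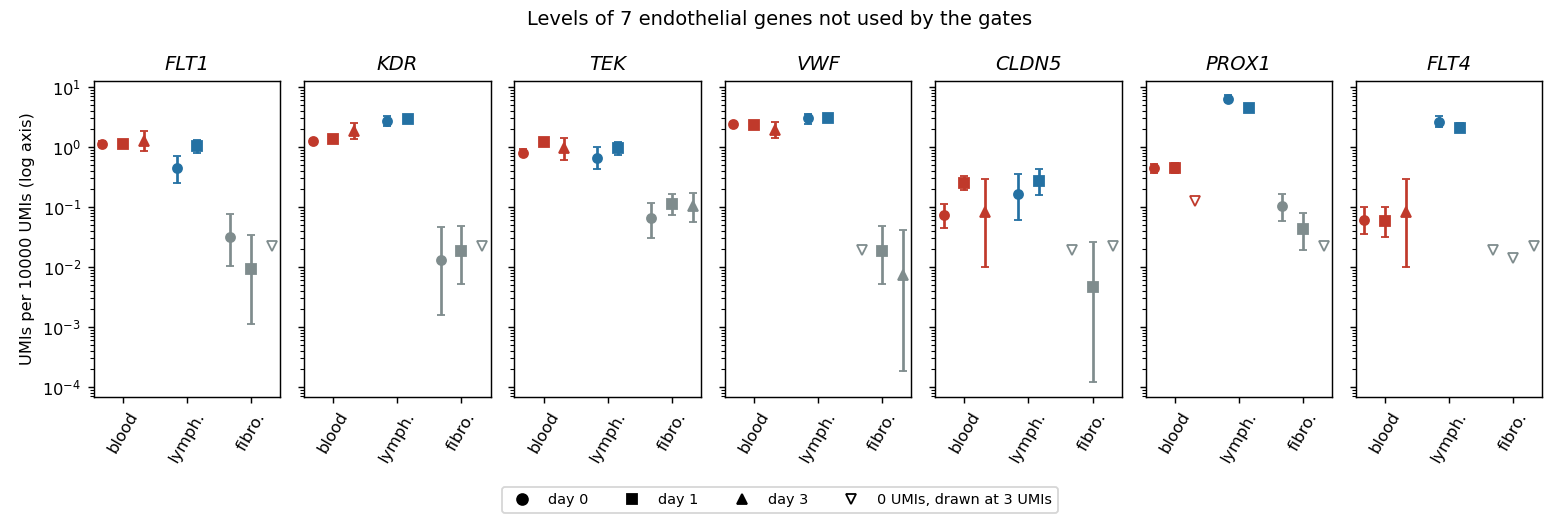
UMIs per 10000 UMIs on a log axis of the 7 members outside the gates in blood endothelial cells (red), lymphatic endothelial cells (blue) and fibroblasts (grey) on days 0, 1 and 3, with exact 95% Poisson intervals. Open triangles stand for 0 UMIs and are drawn at the level of 3 UMIs, and lymphatic cells of day 3 (2 cells) are not drawn. In each panel the endothelial points with UMIs lie above the fibroblast points of the same day.

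Many genes of the wider endothelial lists were, like these members, hardly counted in fibroblasts and entered the test through the blood class alone, so the counts below describe the lists and support nothing. Of 13 further receptors and signalling genes, 9 were higher and none lower, against 11.5% and 11.4% of all genes tested. Their median log2 fold change was 3.29 against 0.02 for all genes tested. Among them were ROBO4, a guidance receptor of endothelium, with 429 UMIs in blood cells against 2 in fibroblasts, and APLNR, the apelin receptor, with 504 against 4. The VEGF co-receptors NRP1 and NRP2 did not pass, at 0.19 ± 0.27 and -0.27 ± 0.38. Without the cells that lacked other endothelial genes, NRP1 was at 0.98. That split was chosen after the values were seen, so no p is given. Of 11 transcription factors tested, 10 were higher (median 5.28, the value of ERG, with 428 UMIs against 12). SOX18 had 2496 UMIs against 8, SOX17 had 940 and SOX7 186 against none, and TAL1 and GATA2 had 1 each in fibroblasts. NR2F2, a factor of venous and lymphatic endothelium, was at -1.02 ± 0.33 and did not pass (adjusted p = 0.070).

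Among 14 junction and adhesion genes tested, 11 were higher and 1 lower (median 4.06). CD34 had 745 UMIs against 7, and MADCAM1, the addressin that guides lymphocytes into gut tissue, had a log2 fold change of 2.76 ± 0.34, with 2424 against 390. VCAM1, a leukocyte adhesion molecule, was the lower one, at -6.30 ± 0.42, with 2.95, 7.08 and 7.57 UMIs per 10000 in fibroblasts and 0.0143, 0.145 and 0.0410 in the blood gate. All 5 capillary genes tested were higher (median 3.34), such as the fatty acid transporter CD36, with 2322 UMIs against 11, and PLVAP, which forms the diaphragms of fenestrated capillaries, at 3.34 ± 0.24. Of 6 arterial genes 3 were higher (GJA4, HEY1 and SEMA3G), and of 4 venous genes 2 were higher (SELP and EPHB4) and 1 lower (VCAM1). SELP and SEMA3G had 1 and 3 UMIs in fibroblasts. Of 3 lymphatic genes tested, none was higher and 2 were lower (PDPN at -3.15 ± 0.53 and SEMA3D at -3.32 ± 0.40). These 2 genes, like VCAM1, entered the test through fibroblasts alone. The blood class was also chosen to lack the lymphatic genes MMRN1 and LYVE1, so low lymphatic genes were in part built in. With cells that lacked other endothelial genes left out, 5 arterial genes were higher and 1 lower.

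Of 8 growth factor ligands tested, 3 were higher in fibroblasts, 1 was higher in blood endothelial cells and 4 did not pass. Over all genes, 11.4% and 11.5% passed in these 2 directions. Fibroblasts had higher VEGFA (log2 fold change -1.36 ± 0.25, edgeR adjusted p = 0.0089), PGF, a ligand of FLT1 (-2.86 ± 0.33), and ANGPT1, the activating ligand of TEK (-3.83 ± 0.55). Their VEGFA levels were 1.47, 1.35 and 0.765 on days 0, 1 and 3, against 0.630, 0.523 and 0.123 in the blood gate. Of the 8 ligands tested, APLN, the apelin ligand, was the 1 that passed as higher in blood endothelial cells, with 43 UMIs against 2. APLN entered the test through the blood class alone, and PGF and ANGPT1 through fibroblasts alone, so the values of these genes are a description. VEGFB, VEGFC, ANGPT2 and ANGPTL4 did not pass the test, and VEGFD was too low to be tested. Without the cells that lacked other endothelial genes, 3 ligands were higher, namely APLN, VEGFC and ANGPT2. VEGFC was then at a log2 fold change of 1.31 and ANGPT2 at 1.55. That split was chosen after the values were seen, so no p is given for them.

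By the rule for naming genes, the largest changes toward blood endothelial cells, counting only genes detected in 25% of them or more, were in SOX17, BTNL9, MYCT1, CLEC1A, ECSCR, GPIHBP1, EXOC3L2, SOX18, CLEC3B and ADGRL4. Of these, SOX17, BTNL9, MYCT1, CLEC1A and EXOC3L2 had no UMI in fibroblasts, so that their place in the order depends on the prior count of the fit. SOX18, CLEC3B and ADGRL4, with 8, 30 and 5 UMIs in fibroblasts, had log2 fold changes of 8.25, 8.07 and 7.90. GPIHBP1, which carries lipoprotein lipase to the capillary surface, had 1266 UMIs in blood cells against 2. The largest changes toward fibroblasts were in ADAMTS2, MMP1, ADAMDEC1, COL6A5, HOXC9, COL6A3, SLITRK6, ALKAL2, CCDC80 and ALDH1A3. ADAMTS2 had no UMI in blood cells, and the others were at -8.62 to -7.29. These include the matrix enzymes MMP1 and ADAMTS2 and chains of collagen VI.

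For the lymphatic class, only days 0 and 1 had at least 20 cells in both endothelial classes, with 47 and 85 lymphatic against 229 and 231 blood cells. On day 3 there were 2 lymphatic-gated cells, and they held no PROX1 and no FLT4. The rule set for the edgeR test asked for at least 3 usable libraries, so genes are described by ratios of summed levels in each library. LYVE1, which chose the cells, stood at 27.6 and 32.5 UMIs per 10000 in the lymphatic class on days 0 and 1. PROX1 was at 6.31 (5.53 to 7.19) on day 0 and at 4.41 (3.93 to 4.94) on day 1 in lymphatic cells, and at 0.437 (0.363 to 0.522) and 0.440 (0.360 to 0.532) in blood cells, so the classes lay apart on both days. In blood cells with other endothelial genes PROX1 was at 0.801 and 0.610. The ratio of PROX1 was 14.5 (11.6 to 18.2) on day 0 and 10.0 (8.01 to 12.6) on day 1. FLT4, the receptor of VEGFC, was at 2.64 (2.14 to 3.22) and 2.07 (1.75 to 2.44) in lymphatic cells and at 0.0609 and 0.0581 in blood cells, or at 0.135 and 0.0922 in those with other endothelial genes. Its ratios were 43.3 (25.7 to 77.4) and 35.7 (20.6 to 66.9).

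Over all 10764 genes with at least 10 UMIs in the classes together in each library, 201 were at least 4-fold higher in lymphatic cells on both days (1.87%) and 209 at least 4-fold lower (1.94%). PROX1 and FLT4 were among the former, and the other 5 members in neither. A fit on the 2 libraries (edgeR), added after the data were seen, called 723 of 10128 genes higher (7.14%). It gave PROX1 a log2 fold change of 3.44 ± 0.26. PROX1 is a member chosen as a lymphatic gene, and the class was chosen by other lymphatic genes. A high value was thus built in, and no p is given for PROX1. FLT4 was at 5.14 ± 0.28 and passed the filter on low counts through the lymphatic class alone, so no p is given for it either. Another scaling moved the median of all genes by over 0.1: it was -0.03 on the log2 scale in this fit and 0.11 without normalization factors.

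**Figure D4:**
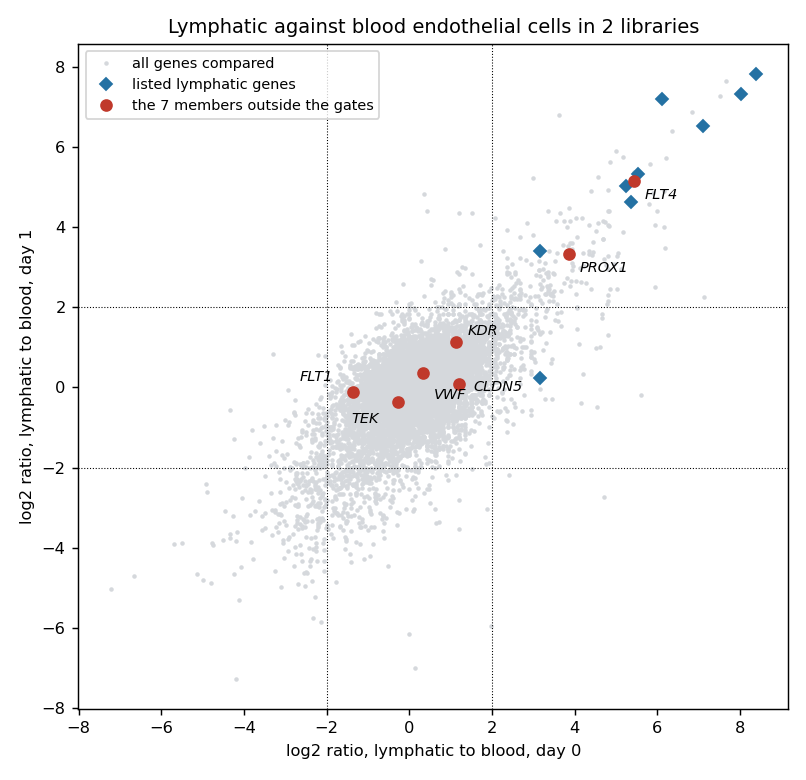
Log2 ratio of summed levels, lymphatic to blood endothelial cells, on day 0 (x axis) and day 1 (y axis), for all 10764 genes compared (grey), the listed lymphatic genes (blue diamonds) and the 7 members outside the gates (red circles). A sum below 3 UMIs was set to 3, and dotted lines mark 4-fold. FLT4 and PROX1 lie beyond 4-fold on both days with 8 of 9 lymphatic genes, while FLT1, KDR, TEK, VWF and CLDN5 lie inside the dotted lines.

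The remaining members changed their place with the cells admitted to the blood class. KDR was 2.20-fold (1.74 to 2.76) and 2.19-fold (1.83 to 2.62) higher in lymphatic cells on days 0 and 1, at 2.72 and 2.93 against 1.24 and 1.34 UMIs per 10000, and the added edgeR fit gave it an adjusted p of 0.011. With the 116 cells without other endothelial genes left out, the ratio of KDR over both days was 1.14 (0.995 to 1.31) and its adjusted p was 0.82. These 116 cells held 1 UMI each of KDR and VWF, 3 of TEK and none of FLT1. The blood levels of these genes thus had to rise without them. That split was chosen after the values were seen, so no p is given for FLT1, TEK and VWF without these cells. VWF was 1.26 times (1.11 to 1.43) as high in lymphatic as in blood cells over both days (edgeR, adjusted p = 0.64). It was 0.650 times (0.572 to 0.737) as high when the same cells were left out. The direction of VWF thus turned, also with a gate of CDH5 and PECAM1 at 3 and PTPRC at 0 (0.805, 0.706 to 0.916). The ratio of FLT1 was 0.392 (0.221 to 0.647) on day 0 but 0.929 (0.702 to 1.22) on day 1, so that in the full gate it was lower beyond the counting error in 1 of the 2 libraries. Over both days it was 0.735 (0.578 to 0.924) in the full gate (edgeR, adjusted p = 0.14) and 0.377 (0.297 to 0.475) without those cells. By day, FLT1 stood at 0.439 and 1.01 in lymphatic cells against 2.48 and 1.86 in blood cells with other endothelial genes, so the gap was wider on day 0. Of the 85 FLT1 UMIs in lymphatic cells, 71 lay in the 31 cells near the threshold. TEK went from 0.855 (0.674 to 1.07) in the full gate (edgeR, adjusted p = 0.25) to 0.441 (0.348 to 0.554). CLDN5, with 24 UMIs in lymphatic and 80 in blood cells, could not be resolved (ratios 1.49, 0.905 to 2.38, and 0.767, 0.465 to 1.22). PROX1 and FLT4 kept their direction, at 7.25-fold (6.13 to 8.61) and 20.2-fold (13.8 to 30.6) without those cells. In all these ratios the 31 cells near the threshold stayed in the lymphatic class. The 101 other lymphatic cells had FLT1 at 0.180, TEK at 0.605, VWF at 2.19 and KDR at 2.86. The 344 blood cells with other endothelial genes had these at 2.16, 1.91, 4.57 and 2.49.

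Of the 9 listed lymphatic genes compared, 8 were at least 4-fold higher in lymphatic cells on both days, against 1.87% of all genes. The class was chosen by the lymphatic genes MMRN1 and LYVE1, and the list was written with earlier results of these data known. Genes such as RELN and CCL21 also reached the minimum count through the lymphatic class alone. A high count was thus built in, and it is a description. The median log2 ratio of the 9 was 5.42 against 0.14 over all genes. RELN, a secreted matrix protein, was at 3.60 and 3.75 UMIs per 10000 in lymphatic cells and at 0.00358 and 0.0166 in blood cells. PDPN (podoplanin) was at 3.93 and 3.81, and TBX1, a transcription factor, at 2.44 and 1.91. CCL21, the chemokine that draws dendritic cells and T cells into lymphatic vessels, was at 0.741 and 1.82 in lymphatic cells and had no UMI in blood cells. FOXC2, a factor of lymphatic valves, was counted 7 and 5 times in lymphatic cells and did not pass 4-fold on day 1. When cells without other endothelial genes were left out, the count was again 8 of 9 (background 1.51%). The lymphatic class stayed the same in this count, so it is a description too.

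The other lists are short, and their counts past 4-fold on both days are a description. Over all genes, 1.87% were higher and 1.94% lower by this rule. Of 13 receptors 1 was at least 4-fold higher in lymphatic cells, namely NRP2, the co-receptor of FLT4, at 1.73 and 2.84 against 0.193 and 0.270 UMIs per 10000. Among the ligands, ANGPT2, an angiopoietin, was at 4.37 and 2.09 against 0.490 and 0.303, and ANGPTL4, an inhibitor of lipoprotein lipase, at 3.38 and 4.04 against 0.394 and 0.834. The transcription factors TAL1 and TBX1 were higher and MECOM lower, at 0.0549 and 0.235 against 0.555 and 1.03. No junction gene of 13 passed 4-fold on both days. The arterial list had none of 6 past 4-fold, the venous list 1 of 4 (EPHB4, higher) and the capillary list 1 of 6 (AQP1, a water channel, higher). Several of these calls changed when the 116 cells without other endothelial genes were left out (over all genes 1.51% higher and 0.328% lower). Then the arterial list had 1 of 6 lower (HEY1), the capillary list 1 of 5 lower (FABP4, a fatty acid binding protein) and the junction list 1 of 9 lower (MMRN2), and SOX17 was lower beside MECOM, while AQP1, EPHB4 and TAL1 no longer passed.

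The largest ratios toward lymphatic cells, by the rule for naming genes, included those of RELN, MRC1, PTX3, WASF3, TNFAIP8L3, PDPN, CCL21, NTN1 and COL8A1. In blood cells PDPN had 18 UMIs over both days and the others 0 to 5, and a sum under 3 in a library was set to 3, so that most of these ratios and their order depend on that floor. MRC1, the mannose receptor also known from macrophages, was at 2.39 UMIs per 10000 and in 59.1% of lymphatic cells. Toward blood cells the largest were RBP2, APOC2, S100G, APOE, SLPI, CTSZ, IGSF23, CTSC, BEX4 and PRAP1, at -6.12 to -3.47. RBP2 and S100G are known from absorptive enterocytes, which bind retinol and calcium with them. In the blood gate, EPCAM, KRT8 and KRT18 passed 5 UMIs in 15 of the 344 cells with other endothelial genes and in 70 of the 116 without. Without the latter, the number of genes at least 4-fold lower in lymphatic cells went from 209 to 31 (0.328% of those compared), while the number higher went from 201 to 143. RBP2, APOC2, SLPI, CTSZ and CTSC were then still at least 4-fold lower in lymphatic cells on both days, and S100G, APOE, IGSF23, BEX4 and PRAP1 were not.

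Within the classes the members were found in the same cells or apart, as follows over days 0 and 1. In the blood gate, KDR was detected in 217 of 271 cells with VWF and in 35 of 189 cells without. FLT1 was detected in 207 of the former and 19 of the latter, and TEK in 200 and 25. Only 1 of the 116 cells without other endothelial genes held VWF and none held FLT1, so nearly all of them count among the cells without. None of the 7 members was seen in 99 of 460 blood-gated cells, and exactly 4 were seen in 121. PROX1 went the other way and was detected in 3 of 226 blood-gated cells with FLT1 and in 49 of 234 without, and 28 of these 49 were among the same 116 cells. In the lymphatic gate, PROX1 was detected in 1 of 24 cells with FLT1 and in 99 of 108 without, and FLT4 in 3 and 81 of the same cells. PROX1 and FLT4 were seen together: FLT4 was in 79 of 100 lymphatic cells with PROX1 and in 5 of 32 without. KDR did not divide these cells, being in 19 of 24 with FLT1 and 86 of 108 without. These are counts over cells of 2 libraries, not a test, and cells with few UMIs miss genes that they transcribe.

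Outside the endothelial classes, levels were set beside those of free RNA, taken as barcodes with at most 100 UMIs. VWF was at 0.205 and 0.145 UMIs per 10000 in those barcodes on days 0 and 1 and lower, at 0.0638 and 0.0295, in B cells. On days 0 and 1, the endothelial gate held 80.4% of all KDR UMIs in cells, 81.7% of VWF, 80.9% of FLT4, 79.6% of FLT1, 84.3% of CDH5 and 89.8% of LYVE1. Myeloid cells held TEK at 0.202 (0.141 to 0.279), 0.118 (0.0917 to 0.149) and 0.376 (0.284 to 0.490) on days 0, 1 and 3, above the free barcodes at 0.0753, 0.0745 and 0.0986. The share of TEK in the gate on days 0 and 1 was 65.3%. For PECAM1 and CLDN5 it was 76.0% and 74.8%. PROX1 stood apart, with 30.2% of its UMIs in the gate on days 0 and 1. On day 3, the gate held 81.4% of KDR UMIs, 71.7% of CDH5, 61.5% of VWF, 2 of 2 FLT4 and 5 of 6 LYVE1 UMIs. It held less of the others on that day, with 40.2% of FLT1, 33.6% of PECAM1, 14.0% of TEK, 3.70% of CLDN5 and 0 of 219 PROX1 UMIs. Epithelial cells had PROX1 at 0.123, 0.211, 0.518 and 0.695 on days 0, 1, 3 and 7, and the 45 enteroendocrine cells of day 0 (CHGA and CHGB of at least 5) at 0.681 (0.294 to 1.34), against 0.151, 0.155, 0.0519 and 0.0542 in free barcodes.

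**Figure D5:**
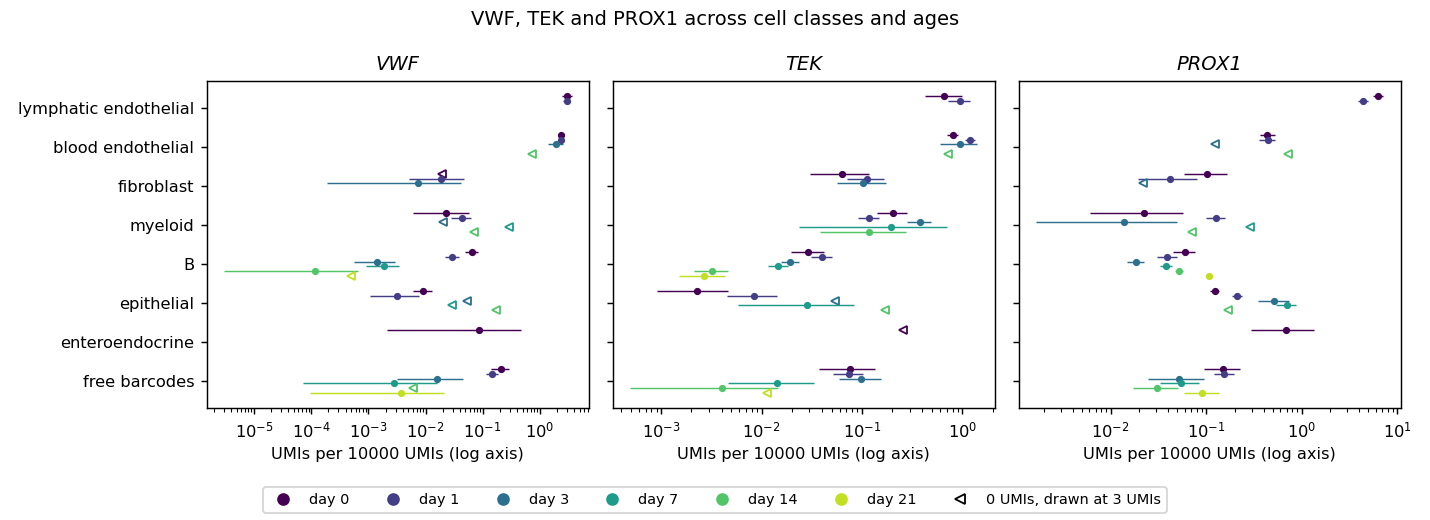
UMIs per 10000 UMIs on a log axis of VWF, TEK and PROX1 in 7 cell classes and in free barcodes of at most 100 UMIs, coloured by age, with exact 95% Poisson intervals and classes of fewer than 10 cells left out. Open triangles stand for 0 UMIs and are drawn at the level of 3 UMIs. VWF is high in both endothelial classes, TEK is next highest in myeloid cells, close to fibroblasts on day 1, and PROX1 is also counted in epithelial and enteroendocrine cells.

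Over all cells of a library, some members became rare by day 3 or later and others did not. LYVE1 was counted 1121, 2488, 6, 4, 3 and 0 times and FLT4 149, 191, 2, 2, 2 and 0 times from day 0 to day 21. CDH5 UMIs numbered 589, 1131, 106, 11, 1 and 0 from day 0 to day 21, KDR UMIs 663, 735, 59, 18, 0 and 0, and VWF UMIs 1089, 1132, 91, 27, 1 and 0. FLT1 was counted 473, 482, 102, 72, 52 and 37 times and CLDN5 42, 113, 54, 8, 30 and 26 times, and of these the gate held 3 FLT1 and 2 CLDN5 UMIs on day 7 and none on days 14 and 21. TEK was counted 89, 36 and 19 times on days 7, 14 and 21, with 1 UMI in the gate. In contrast, PROX1 was still counted 487, 447 and 696 times on days 7, 14 and 21 and PECAM1 993, 1585 and 948 times. None of these late PROX1 UMIs was in a gated cell, and in B cells PROX1 was at 0.0380, 0.0517 and 0.108, against 0.0542, 0.0304 and 0.0908 in free barcodes. PECAM1 was at 0.162 and 0.176 in B cells of days 7 and 14, against 0.0828 and 0.132 in free barcodes. CDH5 had 0 UMIs among the 63246505 UMIs of day 21, where the floor of 3 UMIs would stand at 0.000474 per 10000.

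On Sscrofa11.1, the assembly used by the authors, the annotation places FLT1 on chromosome 11 at 5620698-5797095, KDR on chromosome 8 at 41809116-41856379, FLT4 on chromosome 2 at 78076008-78115137 and TEK on chromosome 1 at 195938177-196052294. VWF lies on chromosome 5 at 64516627-64655938, PROX1 on chromosome 9 at 129527704-129583693 and CLDN5 on chromosome 14 at 51161490-51162382. The CLDN5 gene spans 893 bases, the shortest of the 10 members, so that little sequence was annotated for its transcript end to be counted in. Whether that set its low level was not tested. PECAM1 lies on chromosome 12 at 14667643-14723296, CDH5 on chromosome 6 at 27108560-27142145 and LYVE1 on chromosome 2 at 48937357-48954206.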

How the data were processed

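The authors deposited integer UMI counts for each gene in each barcode, with no filter or normalization, made with Cell Ranger 3.1.0 (with STAR) against Sscrofa11.1. The labels name the third version of the 10x kit and the methods the second. Barcodes with at least 1000 UMIs and 500 genes were taken as cells. No annotation of cells was used, doublets were kept, and gates on counts stand in for cell types. The members, gates and gene lists were chosen with earlier results of these data known.

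UMIs were summed per library and class. Libraries with at least 20 cells in both classes entered edgeR 4.0.16 (TMM, filterByExpr, quasi-likelihood test, library as block) in R 4.3.3, with DESeq2 1.42.0 as an alternative. The 7 gate genes stayed in the library sizes and out of the adjustment. The script was tested on simulated data. The standard error is the log2 fold change divided by the square root of F. Libraries of different ages were the replicates, so p-values measure the spread between these libraries. Lymphatic and blood cells shared only 2 usable libraries, for which ratios are given with exact conditional intervals, and sums under 3 UMIs were set to 3. Shares have exact Clopper-Pearson and levels exact Poisson 95% intervals (scipy 1.17.1), which cover counting error only. Per library, 77391932 to 100348769 UMIs were counted.

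Named genes beyond the members were the 10 with the largest fold in each direction past the threshold that were detected in 25% or more of the higher class, and those on the lists, of which 1 is not reported here. Positions are from RefSeq genes of Sscrofa11.1. Alternatives changed the scaling, test, filters, gates, depth and libraries.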

Additional observations from a re-analysis of the deposited data

How the results depend on the processing

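The alternatives were set with earlier results known, and the gates by other endothelial genes or by CDH5 and PECAM1 both, as well as the edgeR fit on 2 libraries, were chosen after seeing the data. Against fibroblasts, 1247 genes were higher and 1237 lower. The number higher was 1920 with at least 50 cells per class, and leaving out 1 library gave 276 (without day 1) to 1920 (without day 3) higher and 533 (without day 1) to 1784 lower. Between the endothelial classes, 201 genes were higher and 209 lower, but lower numbered 63 with CDH5 and PECAM1 at 3 and PTPRC at 0, and 31 with at least 2 UMIs of other endothelial genes. With 1 library in place of both, 262 to 455 were higher and 341 to 503 lower (455 and 341 without day 1, 503 lower without day 0). Tests on the 2 libraries called 723 higher and 1000 lower by edgeR and 314 and 370 by DESeq2. Without normalization factors the share of higher genes among the calls of edgeR went from 42.0% to 51.5% here and from 50.2% to 43.4% against fibroblasts, where the median of all genes moved from 0.02 to -0.09. The VWF ratio of 1.26 turned to 0.805 and 0.650 under the 2 gates just named. KDR, with an edgeR adjusted p of 0.011, was at 0.10 by DESeq2, and its adjusted p ran from 0.0030 to 0.82 over 10 settings.

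The share of endothelial cells on days 0, 1, 3, 7, 14 and 21 was 2.16%, 2.35%, 0.220%, 0.0158%, 0% and 0.00724% with CDH5 and PECAM1 at 3 and PTPRC at 0. It was 1.81%, 2.18%, 0.202%, 0.00792%, 0% and 0% with CDH5 and PECAM1 both present, and 2.30%, 2.45%, 0.229%, 0.0158%, 0% and 0% with other endothelial genes. Cells thinned to 1000 UMIs gave 1.47%, 1.89% and 0.202% on days 0, 1 and 3 and 0.0313% on day 14, and a minimum of 500 UMIs and 300 genes gave 2.40% and 2.68% on days 0 and 1. In these settings days 0 and 1 stayed above day 3, and day 3 above the later days.

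No pairing between ages was possible because each age has 1 library and the labels give no replicate numbers to pair. The fits between classes compare both classes within each library, with the library as a block. A minimum of 50 cells leaves 1 library for lymphatic against blood cells and was not run. Below 1000 UMIs per cell, and with 42 blood and 2 lymphatic cells on day 3, the depth limits what low genes such as CLDN5 and FLT4 can show.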

Other observations

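A group of 18 blood-gated cells of days 0 and 1, picked by their values after these were seen, held at least 2 PROX1 UMIs together with at least 2 UMIs of the other endothelial genes, and no UMI of LYVE1 or MMRN1. They had PROX1 at 9.03 UMIs per 10000, KDR at 1.40 and CDH5 at 1.45, but FLT1, TEK and VWF at 0.0998, 0.0499 and 0.0998. FLT4 was at 0.249 in these cells, with 5 UMIs. CLDN5 was at 0.549, and 11 of the 80 CLDN5 UMIs of the blood gate on the 2 days lay in these cells. The 11 cells of day 0 and the 7 of day 1 differed, with PROX1 at 6.24 and 18.7, CDH5 at 1.09 and 2.67, CLDN5 at 0.257 and 1.56 and FLT4 at 0.129 and 0.667. Epithelial genes passed 5 UMIs in 4 of the 18.

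On day 7, 2 cells of the endothelial gate held other endothelial genes, with 21 and 33 UMIs of them. VWF was counted 10 and 7 times in these cells and KDR 1 and 3 times, PECAM1 6 and 25 times, and neither cell held a B cell gene count above 1. They are the last cells in age with VWF in the gate.

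SELE, the endothelial selectin of inflamed vessels, had 3 UMIs in the blood gate on day 0 and 113 on day 1, and ACKR1, a chemokine scavenger of venules, 184 and 348. MADCAM1 was at 1.04 and 8.98 UMIs per 10000 in the lymphatic gate and at 2.83 and 6.40 in the blood gate of the same libraries. VCAM1 was at 0.0549 and 1.68 in the lymphatic gate. On day 1 this gate included 21 cells with only 2 to 4 UMIs of MMRN1 and LYVE1, with FLT1 at 2.75 and PROX1 at 0.449. It also held 56 ACKR1 UMIs on day 1 against 0 on day 0. Whether MADCAM1 and VCAM1 lay in those 21 cells was not tested. Each age is 1 library, so age and library cannot be told apart.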
